A study of Mus musculus with 5 samples.

Results

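The 10 genes described here mark the stem cells of the intestinal crypt or feed back on the WNT signal that maintains them: Lgr5, Lgr4, Olfm4, Ascl2, Smoc2, Axin2, Rnf43, Znrf3, Tnfrsf19 and Rgmb. They were taken by name from the deposited tables of unique molecular identifiers (UMIs, the molecules counted after removal of amplification copies), which hold 18418 genes over 5 libraries. Each library is 1 plate of 384 wells of single mouse organoid cells sequenced by SORT-seq, with 1 sorted cell intended per well. In all, 9 of the 10 genes had a UMI in the Cys and in the fetal library, and all 10 had one in the other 3. Wells with at least 1000 UMIs, spike-ins left out, were kept.

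Organoids are cultures of gut epithelium grown in a gel. The libraries were small intestinal organoids of genotype Lkb1 -/- whose title carries the mark Cys (359 wells), a second library of genotype Lkb1 -/- marked Bud (318 wells), small intestinal organoids of genotype Lkb1 +/- (het, 351 wells), fetal intestinal organoids of genotype WT (371 wells) and small intestinal organoids of genotype WT (302 wells). The gene Stk11 encodes the Lkb1 kinase. The labels do not explain Bud and Cys, and how the alleles were made, the age of the animals and the number of clones or animals behind a library are not given in the sources used here. The growth protocol is the same in all 5 labels: a medium with Egf, Noggin and R-spondin1, the ligand of the Lgr receptors. No group had a replicate, so no test was possible and no p-value is given. Brackets hold 95% intervals that cover counting error only.

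In the crypt, WNT proteins bind Frizzled receptors and stabilise β-catenin, which switches on target genes with TCF/LEF factors. Rnf43 and Znrf3 are membrane ubiquitin ligases that remove Frizzled, and Axin2 is a scaffold of the complex that destroys β-catenin, so these WNT targets dampen the signal that induces them. R-spondin bound to Lgr4 or Lgr5 draws the ligases away and so sustains the signal, and Lgr5 marks the cycling stem cells at the crypt base.

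The kept wells held 4035219 to 5865507 UMIs per library and a median of 10414 to 14637 UMIs per well. Stk11 was read at 9.03 CPM (UMIs scaled to the library total) in Cys, 11.7 in Bud, 14.1 in het, 16.03 in fetal and 20.6 in WT organoids, which leaves the genotypes unchecked, because the chemistry reads a 3' tag and the labels do not say which part of Stk11 was altered. Wells with over 2% of UMIs from Kcnq1ot1 made up 6.13% of Cys, 13.5% of Bud, 17.1% of het, 0.539% of fetal and 7.28% of WT wells, and 2 Cys wells exceeded 100000 UMIs. The summed level of 8 epithelial markers was 5386 to 6802 CPM in every library, while 10 mesenchymal markers summed to 2.0 to 4.1 CPM and 5 endothelial markers to 0.2 to 2.1 CPM. The 6 immune markers in the tables summed to 10.04 CPM in Cys, 7.38 in Bud, 5.69 in het, 28.0 in fetal and 9.17 in WT organoids. The 17 enterocyte markers summed to 30.3 CPM in Cys, 1327 in Bud, 7548 in het, 209.7 in fetal and 4162 in WT organoids.

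Lgr5 (chromosome 10, 115450311 to 115587780, reverse strand, GRCm38) was nearly absent from the Cys library and present in the others. It was read at 13.0 CPM in Cys (10.1 to 16.6), 309.8 in Bud (293 to 327), 293 in het (278 to 310.0), 102 in fetal (94.3 to 111) and 278 in WT organoids (262 to 295). Bud did not differ from het, nor het from WT, beyond counting error, but Bud stood 1.11-fold above WT (1.03 to 1.21). Fetal stood below WT, and Cys below fetal, by more than counting error. In Cys the 65 UMIs lay in 42 of 359 wells, and the 10 richest wells held 49.2% of them.

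Lgr4 (chromosome 2, 109917647 to 110014257, forward strand), the related R-spondin receptor of wider expression, did not follow Lgr5. It was read at 156 CPM in Cys (145 to 167), 159.6 in Bud (148 to 172), 134 in het (124 to 146), 40.6 in fetal (35.6 to 46.1) and 131 in WT organoids (119.9 to 142.5). The fetal library was thus the low one for Lgr4, and Cys stood beside Bud, from which it did not differ beyond counting error. One Cys well held 64 of the 777 Lgr4 UMIs.

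Smoc2 (chromosome 17, 14279506 to 14404790, forward strand) encodes a secreted calcium-binding matrix protein that marks Lgr5 stem cells. It was read at 1.81 CPM in Cys (9 UMIs in 9 wells), 319 in Bud, 287 in het and 312 in WT organoids, and it had no UMI in the fetal library, where 3 UMIs would have been 0.511 CPM. Bud and WT did not differ beyond counting error, and het stood 1.09-fold below WT (1.00 to 1.18).

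Ascl2, a transcription factor of the basic helix-loop-helix family that maintains stem cell identity downstream of WNT (chromosome 7, 142966829 to 142969264, reverse strand), was read at 27.1 CPM in Cys, 150.3 in Bud, 141 in het, 14.0 in fetal and 157 in WT organoids. Its low libraries were again Cys and fetal, but in the reverse order to Lgr5. Olfm4, a secreted glycoprotein of crypt base cells (chromosome 14, 79984081 to 80023139, forward strand), was scarce everywhere: no UMI in Cys, 16.2 CPM in Bud, 10.7 in het, 1 UMI in fetal and 11.6 CPM in WT organoids. For Ascl2, WT did not differ from Bud, nor Bud from het, beyond counting error. For Olfm4, WT lay between Bud and het and differed from neither beyond counting error, while Bud stood above het with a ratio of 1.51 (1.03 to 2.25).

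Tnfrsf19, a receptor of the tumour necrosis factor family that marks crypt stem cells and is a WNT target (chromosome 14, 60963875 to 61046490, reverse strand), had its highest level in the fetal library. It was read at 3.21 CPM in Cys (16 UMIs in 10 wells), 23.3 in Bud, 14.8 in het, 59.8 in fetal and 25.8 in WT organoids. Rgmb, a membrane-anchored co-receptor for bone morphogenetic proteins (chromosome 17, 15803188 to 15831039, reverse strand), was read at 7.03 CPM in Cys, 80.02 in Bud, 49.1 in het, 5.97 in fetal and 65.4 in WT organoids. Cys and fetal were the low libraries for Rgmb and did not differ beyond counting error.

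The feedback genes divided into Axin2, which was low where Lgr5 was low, and the ubiquitin ligases, which varied much less. Axin2 (chromosome 11, 108920349 to 108950783, forward strand) was read at 10.8 CPM in Cys (8.14 to 14.1), 196 in Bud (182 to 209), 157 in het (146 to 169.6), 30.01 in fetal (25.7 to 34.8) and 177 in WT organoids (164 to 191). Rnf43 (chromosome 11, 87662722 to 87735539, forward strand) was read at 39.3 CPM in Cys, 56.2 in Bud, 51.4 in het, 29.2 in fetal and 54.5 in WT organoids. Znrf3 (chromosome 11, 5276324 to 5444847, reverse strand) was read at 30.9 CPM in Cys, 43.6 in Bud, 31.4 in het, 59.3 in fetal and 50.1 in WT organoids, so that fetal was the lowest library for Rnf43 and stood first for Znrf3, there without differing from WT beyond counting error. Rnf43 overlaps 1110028F11Rik on the same strand, which had 56 UMIs in all, and the sources used here do not say how shared reads were counted. The other genes that overlap a member had at most 2 UMIs each.

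**Figure D1:**
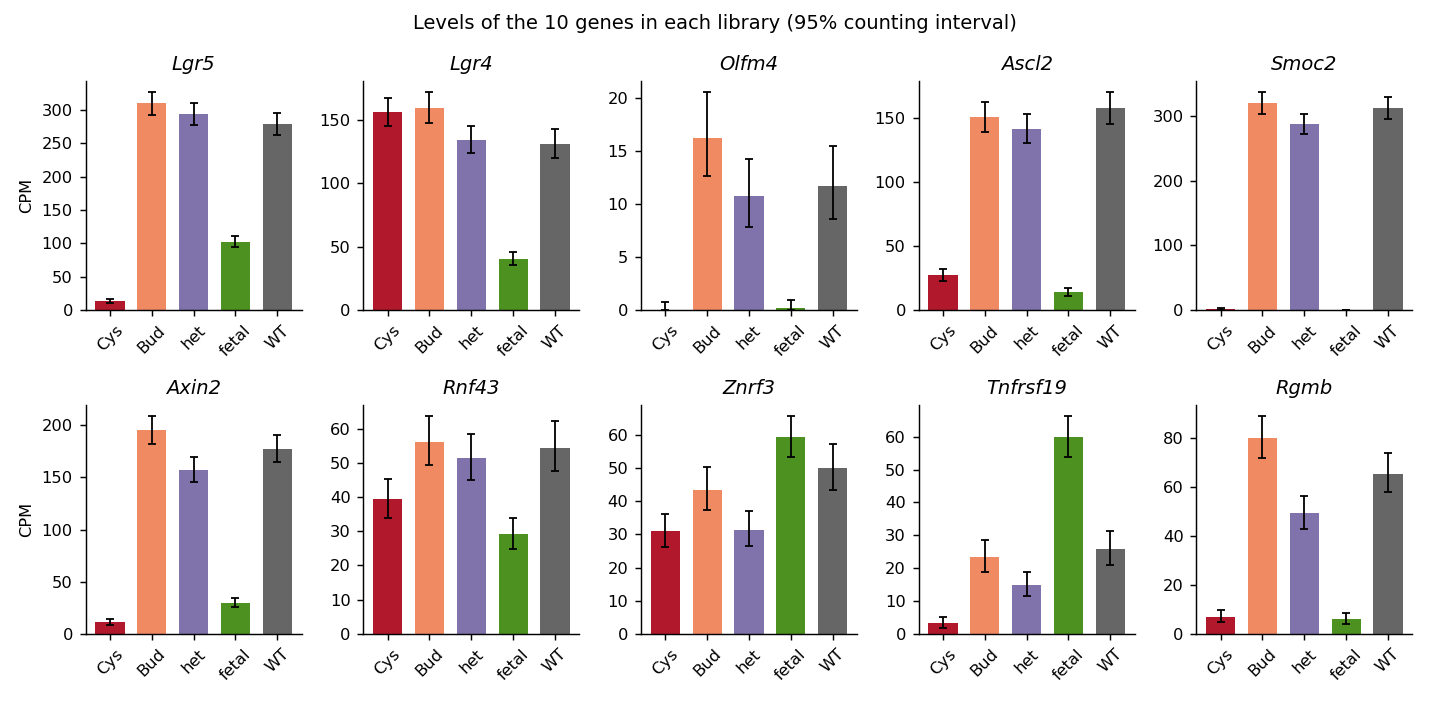
Level of each gene in CPM (linear axis from 0, scaled per panel) in the Cys, Bud, het, fetal and WT libraries; bars are 1 library each and whiskers the 95% Poisson interval. Lgr5 and Axin2 are low in Cys and intermediate in fetal, Smoc2 and Rgmb are low in both, Lgr4 is low in fetal alone, and Tnfrsf19 is highest in fetal, as is Znrf3, though within counting error of WT.

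Set against WT, the Cys organoids were lower in 8 of the 10 genes and higher in none. Calls, higher or lower, needed a CPM ratio of 1.5 or more that way and a counting interval outside 1, in genes with at least 10 UMIs over both libraries. Over all genes measured, 22% were called lower and 17.6% higher in Cys, and the median log2 ratio (10 CPM added) was -0.06 against -1.79 over the 10 genes. Smoc2 was 173-fold lower (90.6 to 378), Lgr5 21.3-fold (16.6 to 27.8) and Axin2 16.3-fold (12.4 to 22.0). Olfm4, with no UMI in Cys, was at least 19.3-fold lower when 3 UMIs are set in place of the 0. Marker lists moved with these genes: all 17 measured genes of a fetal and regenerative list were called higher in Cys than in WT, and all 15 measured enterocyte markers lower. The fetal and regenerative list summed to 13607 CPM in Cys, 1160.2 in Bud, 643 in het, 18246 in fetal and 558 in WT organoids, and its gene Clu, a secreted chaperone, stood at 3399 CPM in Cys against 10.4 in WT. Their part in the member levels was not tested.

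The other 4 called genes differed less. Rgmb was 9.31-fold lower in Cys than in WT (6.53 to 13.7), Tnfrsf19 8.02-fold (4.72 to 14.6), Ascl2 5.81-fold (4.82 to 7.04) and Znrf3 1.62-fold (1.31 to 2.01). The genes not called were Rnf43, 1.39-fold lower (1.14 to 1.69), and Lgr4, at a ratio of 1.19 (1.07 to 1.33). Without the 2 Cys wells over 100000 UMIs, the number of members called was the same and each log2 ratio lay within its counting interval. In bulk sums such as these, fewer cells with a transcript and less transcript per cell cannot be told apart. Shares of wells with a UMI are given as well, but such a share also falls when each cell holds less transcript. The shares therefore do not separate these either.

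Against Bud, of the same Lkb1 -/- genotype, Cys was called lower in 7 of the 10 genes, where 19.5% of all genes measured were called lower and 19.2% higher. Lgr5 was 23.7-fold lower (18.5 to 30.9), Smoc2 177-fold (92.8 to 387), Axin2 18.0-fold (13.7 to 24.2) and Rgmb 11.4-fold (8.03 to 16.6). Tnfrsf19 was 7.27-fold lower, Ascl2 5.54-fold lower and Olfm4, again with 3 UMIs in place of the 0, at least 26.9-fold lower. Lgr4, with a ratio of 0.978 (0.881 to 1.09), Rnf43, 1.43-fold lower, and Znrf3, 1.41-fold lower, were not called. Against het the same number was called lower, 7 of 10, beside 21.3% of all genes called lower and 18.9% higher. There too Lgr4, Rnf43 and Znrf3 were outside the call, with Znrf3 at 1.02-fold lower (0.801 to 1.29). These comparisons share the Cys library.

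The Bud library held no called difference from WT in any of the 10 genes, beside 5.79% of all genes called higher and 8.67% called lower. The lowest ratio was that of Znrf3 at 0.871 (0.709 to 1.07) and the highest that of Olfm4 at 1.39 (0.945 to 2.06). The intervals of Lgr5 (1.03 to 1.21), Lgr4 (1.09 to 1.37) and Rgmb (1.04 to 1.44) excluded 1 from above without reaching the 1.5-fold limit. In every gene but Olfm4 the interval also excluded a ratio of 1.5, the highest upper bound among them being 1.44 for Rgmb.

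In het organoids, 2 of the 10 genes were called lower than in WT, Znrf3 at 1.59-fold (1.28 to 1.99) and Tnfrsf19 at 1.74-fold (1.27 to 2.41), where 8.83% of all genes were called lower and 8.43% higher. Rgmb was 1.33-fold lower (1.11 to 1.60) and was not called. Lgr5, at a ratio of 1.05 (0.973 to 1.14), Lgr4, at 1.03, and Rnf43, at 0.943, lay close to WT. Between Bud and het, 3 genes were called higher in Bud, beside 8.94% of all genes called higher and 11.7% lower: Rgmb with a ratio of 1.63 (1.37 to 1.94), Tnfrsf19 with 1.58 (1.14 to 2.19) and Olfm4 with 1.51 (1.03 to 2.25). No call in either comparison reached a ratio of 2 or more.

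The fetal organoids were lower than WT in 8 of the 10 genes and higher in 1, where 22.3% of all genes were called lower and 29.4% higher. Smoc2, with no fetal UMI, was at least 609.5-fold lower when 3 UMIs are set in place of the 0. Ascl2 was 11.3-fold lower (8.93 to 14.3), Rgmb 10.96-fold (7.69 to 16.1) and Axin2 5.91-fold (5.001 to 7.004). Olfm4, with 1 fetal UMI, was 68.3-fold lower with a wide interval (11.7 to 2755). Lgr4 was 3.22-fold lower (2.76 to 3.77), Lgr5 2.72-fold (2.46 to 3.01) and Rnf43 1.87-fold (1.52 to 2.30). Tnfrsf19 was the gene called higher, with a ratio of 2.32 (1.86 to 2.92), and Znrf3, at 1.19 (0.994 to 1.42), was not called. Here too all 17 measured fetal and regenerative genes were called higher than in WT, and 14 of 16 measured enterocyte markers lower and 2 higher.

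Cys and fetal organoids, both low in the summed level of the 10 genes (289 CPM in Cys and 341 in fetal, against 1263 in WT), differed from each other in which genes remained. Of 8 genes measured between them, 2 were called higher in Cys, beside 16% of all genes, and 4 lower, beside 28.6%. Lgr4 was 3.84-fold higher in Cys (3.32 to 4.46) and Ascl2 1.94-fold (1.46 to 2.58). Tnfrsf19 was 18.6-fold lower in Cys (11.3 to 33.0), Lgr5 7.84-fold (6.06 to 10.3), Axin2 2.77-fold (2.03 to 3.83) and Znrf3 1.92-fold (1.58 to 2.34). Rnf43, with a ratio of 1.35, and Rgmb, with 1.18, were not called.

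**Figure D2:**
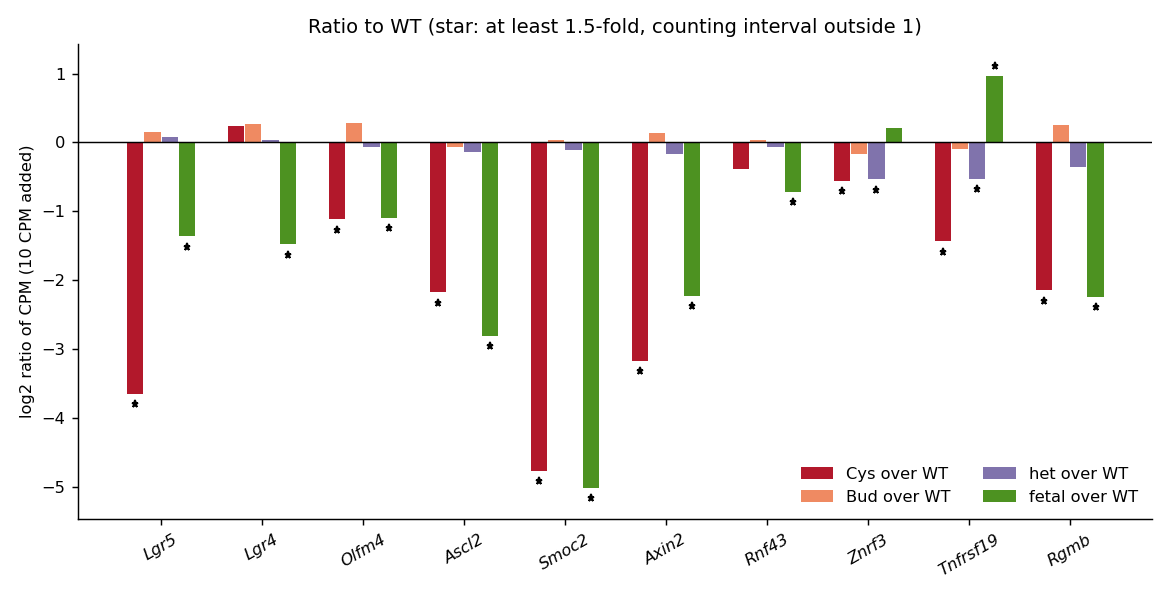
Log2 ratio of CPM (10 CPM added to both values) of each gene in Cys, Bud, het and fetal organoids over WT; bars are single values without replicates and stars mark ratios of at least 1.5 whose counting interval excludes 1. Cys and fetal bars reach -4.77 and -5.01 for Smoc2, whereas no Bud bar is starred.

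Upstream sequences were read for the members because most of them were low together in Cys. RefSeq windows of GRCm38.p6, from 250 bases before to 50 after a start site, were given for 7 of the 10 genes, in 11 windows. The letters CTTTGAA and CTTTGAT, forms of the TCF/LEF motif, were searched on both strands. They occurred in 1 of the 11 windows and in 8.65% of 32851 windows of all genes, and a match is a description of letters only. Shown 5′ to 3′ are the 250 bases before the start of Ascl2 (chr7:142969265-142969514, reverse strand) and of Axin2 (chr11:108920099-108920348, forward strand), both among the lower genes in Cys and in fetal organoids. The third is the alternative start of Tnfrsf19 (chr14:61037988-61038237, reverse strand), the member that was lower in Cys and higher in fetal organoids and the one window with a match. Capitals mark that match, which begins 202 bases before the start site.
Ascl2: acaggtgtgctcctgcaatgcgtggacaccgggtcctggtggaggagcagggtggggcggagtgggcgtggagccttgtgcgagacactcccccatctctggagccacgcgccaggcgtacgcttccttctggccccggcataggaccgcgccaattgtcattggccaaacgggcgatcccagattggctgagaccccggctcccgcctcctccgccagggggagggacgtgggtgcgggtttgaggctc
Axin2: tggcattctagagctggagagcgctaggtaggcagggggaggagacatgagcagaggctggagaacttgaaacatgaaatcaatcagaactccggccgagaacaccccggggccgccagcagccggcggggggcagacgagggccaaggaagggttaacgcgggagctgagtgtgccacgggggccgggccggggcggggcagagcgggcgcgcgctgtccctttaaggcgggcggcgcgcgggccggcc
Tnfrsf19: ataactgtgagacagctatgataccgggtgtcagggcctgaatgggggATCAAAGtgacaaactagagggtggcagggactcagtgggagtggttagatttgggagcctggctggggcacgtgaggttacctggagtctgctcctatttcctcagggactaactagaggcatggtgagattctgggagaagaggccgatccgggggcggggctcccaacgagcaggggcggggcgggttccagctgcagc

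To compare at equal depth how many wells held a UMI, each well was thinned at random to 4000 UMIs and shallower wells were left out. This left 297 Cys, 241 Bud, 268 het, 362 fetal and 235 WT wells. At this depth a gene of low level can be missed in a cell that holds its transcript. The shares therefore do not count the cells that express a gene. Lgr5 was then found in 3.70% of Cys wells (1.86 to 6.53), 55.6% of Bud (49.1 to 62.0), 49.3% of het (43.1 to 55.4), 30.1% of fetal (25.4 to 35.1) and 56.6% of WT wells (50.0 to 63.0). Before thinning, over all kept wells, the shares were 11.7% of Cys, 71.1% of Bud, 54.1% of het, 51.5% of fetal and 68.9% of WT wells. Over 20 thinning draws the Cys share ran from 3.03% to 6.73% and the fetal share from 25.1% to 30.4%, both below the lowest Bud, het and WT draws. Among thinned wells with Lgr5, the mean count was 1.27 UMIs in Cys, 2.13 in Bud, 2.54 in het, 1.60 in fetal and 2.20 in WT organoids.

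Smoc2 was found in 0.673% of Cys thinned wells, 62.2% of Bud, 53.0% of het, none of 362 fetal wells, where a count of 0 allows a share of wells with a UMI of up to 0.829%, and 64.3% of WT wells. Axin2 was found in 4.04% of Cys, 50.2% of Bud, 35.1% of het, 12.4% of fetal and 40.9% of WT wells. Ascl2 was found in 8.75% of Cys, 36.9% of Bud, 31.7% of het, 4.70% of fetal and 37.9% of WT wells. Cys and fetal thus held the fewest wells for each of these genes. Rgmb was found in 1.68% of Cys, 28.6% of Bud, 19.4% of het, 1.10% of fetal and 26.0% of WT wells. Tnfrsf19 was found in 1.01% of Cys, 9.54% of Bud, 7.09% of het, 21.0% of fetal and 10.2% of WT wells, and was the member with its highest share in the fetal library beside Znrf3. Olfm4 was found in none of 297 Cys wells (up to 1.01% by the same limit) and none of the fetal wells, and in 5.39% of Bud, 3.36% of het and 5.53% of WT wells. Lgr4 was found in 43.4% of Cys, 51.0% of Bud, 40.3% of het, 15.7% of fetal and 38.7% of WT wells. Rnf43 was found in 14.1% (fetal) to 20.9% (WT) of wells and Znrf3 in 12.7% (het) to 20.7% (fetal), and the intervals of all 5 libraries overlapped for both.

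**Figure D3:**
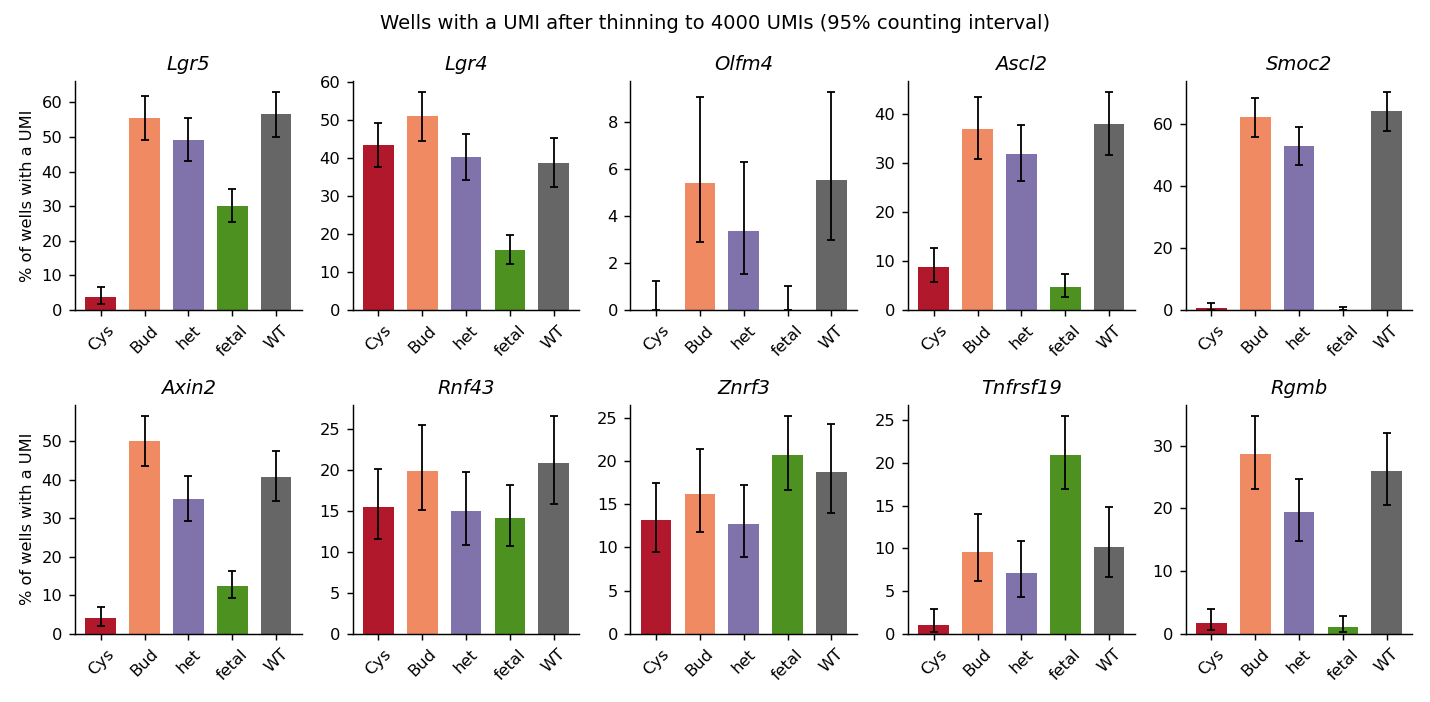
Share of wells with a UMI of each gene after thinning to 4000 UMIs per well, in percent (linear axis from 0, scaled per panel), in the Cys, Bud, het, fetal and WT libraries; whiskers are 95% Clopper-Pearson intervals. Lgr5 wells make up 3.70% in Cys and 56.6% in WT, while Lgr4 wells make up 43.4% in Cys and 38.7% in WT.

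Whether the members were found in the same cells as Lgr5 was read by dividing the thinned wells of each library into those with and those without a Lgr5 UMI. A ratio here is the mean UMIs per well with Lgr5 over the mean per well without, called by the same rule of 1.5-fold and counting interval. At 4000 UMIs a well holds few member UMIs, so the split itself varied with the random draw. Brackets after a ratio of the first draw are its counting interval, and medians and ranges over 20 draws are named as such.

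At this depth the most members were called in het organoids. Thinned to 8000 UMIs, however, 8 were called in het, 7 in Bud and 8 in WT, and unthinned 8 in each of these 3. The share of all genes called was not computed at 8000 UMIs or unthinned. An unthinned split also depends on the depth per well. In the first draw at 4000 UMIs, with 132 wells with and 136 without Lgr5, 7 of 9 other members were called higher with Lgr5, beside 6.84% of all genes, and none lower, beside 6.73%. Ascl2 was 3.86-fold higher (2.597 to 5.90), Smoc2 3.24-fold (2.49 to 4.25) and Axin2 3.04-fold (2.12 to 4.45). Over the 20 draws 6 to 9 members were called, and Ascl2, Smoc2, Axin2, Rnf43 and Rgmb were called in every draw. The median ratio over the draws was 2.75 for Ascl2 (range 2.18 to 4.35), 2.92 for Smoc2 (2.27 to 3.56) and 3.22 for Axin2 (2.14 to 3.66). It was 3.28 for Rnf43 (2.14 to 17.7) and 2.68 for Rgmb (1.89 to 6.03). Znrf3 stood at 5.004 in the first draw but at a median of 2.37 (1.42 to 6.41), and was called in 14 of 20 draws. Tnfrsf19, on 18 UMIs in wells with and 2 in wells without Lgr5 in the first draw, was called in 19 draws. Lgr4 had the lowest median ratio, 1.29 (range over draws 1.00 to 1.52), and was called in 3.

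Enterocyte genes were set beside this result. In het wells with over wells without Lgr5, the ratio of the brush border phosphatase Alpi was 0.153 (0.101 to 0.225) and that of the fatty acid binding protein Fabp1 0.172 (0.137 to 0.214), and het had the highest summed enterocyte level of the 5 libraries. Leaving out the wells that held an Alpi, Fabp1, Sis or Krt20 UMI, a choice made after seeing the data, left 89 het wells with and 42 without Lgr5. There 3 het members were called in the first draw, and the ratios were 1.75 for Ascl2, 2.22 for Smoc2 and 1.95 for Axin2. The share of all genes called was not computed for these wells, and the other draws were not used. Fewer wells also widen the counting intervals, and the part of the enterocyte content in the ratios was not tested.

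In WT organoids (133 wells with and 102 without Lgr5) 3 of 9 members were called higher, beside 3.79% of all genes, and none lower, beside 4.73%. Ascl2 was 1.70-fold higher (1.19 to 2.46), Smoc2 1.78-fold (1.37 to 2.32) and Tnfrsf19 3.07-fold (1.22 to 9.18). The count depended on the draw, with 2 to 8 members called and a median of 5.5. Over the draws the median ratio was 1.96 for Ascl2 (range 1.35 to 3.199), 1.79 for Smoc2 (1.34 to 2.33), 1.72 for Axin2 (1.29 to 3.17) and 2.37 for Rgmb (1.19 to 4.38). Every measured WT member stayed above 1 in all draws, Lgr4 with a median of 1.43 (1.153 to 2.09). Without the wells with an enterocyte UMI no WT member was called, on 112 wells with and 51 without Lgr5. The counting intervals are wider on these fewer wells, so the lack of calls alone does not tell lower ratios from wider intervals. The part of the enterocyte content in the WT ratios was not tested.

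In Bud organoids (134 wells with and 107 without Lgr5) Axin2 alone was called higher in the first draw, at 1.66-fold (1.21 to 2.30), beside 3.46% of all genes called higher and 4.21% lower, and 1 to 7 members were called over the draws. Over the draws the median ratio was 1.96 for Axin2 (range 1.28 to 2.78), called in 18 of 20 draws, 1.67 for Smoc2 (1.34 to 2.22) and 1.48 for Ascl2 (1.26 to 1.996). In the fetal library (109 wells with and 253 without) the first draw called 5 of 6 measured members, beside 3.24% of all genes called higher and 3.06% lower, but the median over draws was 1 and the range 0 to 5. The fetal median ratios were 2.19 for Ascl2 (range 0.718 to 4.31), 1.70 for Axin2 (1.11 to 2.25), 1.55 for Rnf43 (0.898 to 2.37) and 1.23 for Tnfrsf19 (0.992 to 1.72). Of the 6 measured fetal members Axin2 was the one that stayed above 1 in all draws, and the other 5 lay on both sides of it.

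In Cys organoids 11 wells held Lgr5 after thinning and 286 did not. Axin2, found in 3 of the 11 wells, was the 1 member of 5 called, at 7.09-fold (1.27 to 26.8), beside 2.37% of all genes called higher and 0.649% lower. Over the draws its ratio ran from 0 to 11.6 and it was called in 4 of 20. Lgr4 had a median ratio of 1.56 (range 0.792 to 2.67) and was called in 7 of 20 draws, the most of the 5 measured Cys members. All 5 fell below 1 in at least 1 draw, and 0 to 2 were called per draw, so that no member stood above 1 throughout in Cys organoids at this depth. No measured member was called lower in wells with Lgr5 in any draw of any library.

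**Figure D4:**
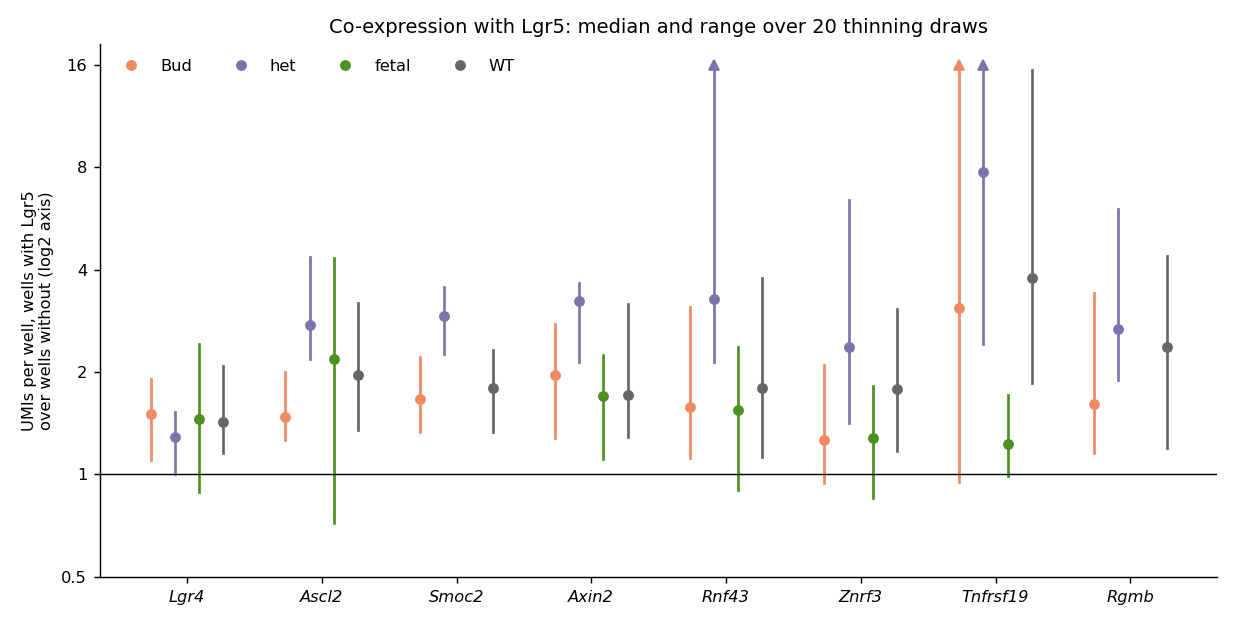
Mean UMIs per well of each member in wells with over wells without Lgr5 (log2 axis), after thinning to 4000 UMIs, in Bud, het, fetal and WT organoids; points are the median and lines the range over 20 thinning draws, triangles mark ranges beyond 16, Cys is left out for its few wells with Lgr5 and Olfm4 for its few UMIs. The het points of Smoc2 and Axin2 stand at 2.92 and 3.22, against 1.79 and 1.72 in WT.

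The number of members per well was counted in the first draw and was not recomputed in the others. That draw called 1 member with Lgr5 in Bud and 3 in WT, against medians over 20 draws of 4 and 5.5. In het it called 7, which was also the median. Wells with Lgr5 held a mean of 3.24 of the 9 other members in Bud, 3.06 in het and 3.08 in WT organoids, against 2.25 in Bud, 1.32 in het and 2.05 in WT wells without Lgr5. In Cys the means were 1.18 with and 0.871 without Lgr5, and in fetal organoids 1.18 with and 0.775 without. At least 3 other members were found in 71.6% of Bud, 61.4% of het, 62.4% of WT, 9.09% of Cys and 11.01% of fetal wells with Lgr5. Of wells without Lgr5, 43.0% of Bud, 14.0% of het and 36.3% of WT wells held at least 3 other members. Wells without Lgr5 in this draw include some that held it before thinning. Over all kept wells, Lgr5 was found in 71.1% of Bud, 54.1% of het and 68.9% of WT wells before thinning. After thinning, with the shallower wells left out, it was found in 55.6% of Bud, 49.3% of het and 56.6% of WT wells. The shares before and after thinning thus do not cover the same wells. The part of depth in the wider gap of het was not tested.

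**Figure D5:**
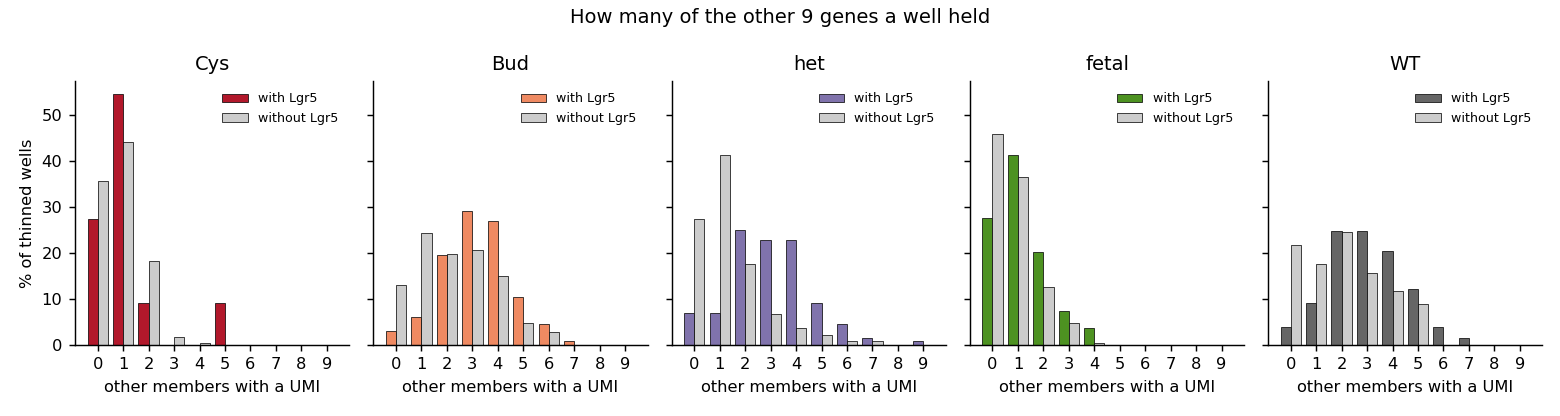
Number of the other 9 genes with a UMI per well (horizontal axis) against the percent of thinned wells, for wells with Lgr5 (coloured) and without (grey), in Cys, Bud, het, fetal and WT organoids. In the first draw, the only one counted here, the coloured and grey distributions stand furthest apart in het, with means of 3.06 and 1.32 genes.

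Genes of the cycling cell were also set beside Lgr5, as descriptions from the first draw. The proliferation gene Mki67 had ratios of 2.11 in Cys (1.21 to 3.47), on 11 wells with Lgr5, 1.80 in Bud (1.29 to 2.54), 1.58 in het (1.23 to 2.05) and 2.14 in WT (1.46 to 3.19) for wells with over wells without Lgr5, but 0.486 in fetal organoids (0.319 to 0.720). The topoisomerase gene Top2a was at 1.24 in Cys (0.446 to 2.77), 1.67 in Bud, 1.77 in het and 1.43 in WT, and at 0.511 in fetal organoids (0.306 to 0.816). The low fetal ratios were not recomputed in the other draws. Unthinned, Mki67 was found in 41.9% of fetal wells with Lgr5 and 43.9% without. For Top2a these unthinned fetal shares were 33.0% and 35.6%, and such shares also depend on the depth per well. The crypt factor Sox9 had ratios of 1.12 in Cys, 1.63 in Bud, 1.87 in het, 1.62 in WT and 1.02 in fetal organoids. The adhesion receptor Cd44 had ratios of 0.761 in Cys (0.432 to 1.25), 1.27 in Bud, 1.66 in het, 2.15 in WT and 1.21 in fetal organoids, its level being 435 CPM in Cys, 353 in Bud, 133 in het, 537 in fetal and 154 in WT organoids.

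The genes most like Lgr5 from well to well were sought among the 8132 genes found in 10% or more of kept wells in each of the WT, het and Bud libraries, by Spearman's rho over the thinned wells averaged over those 3 libraries. The correlations share library and depth and have no p-value. They come from the first draw and were not recomputed in the others, so the ranks may differ between draws. The sodium, potassium and chloride cotransporter Slc12a2 was first with a mean rho of 0.454 (0.353 in Bud, 0.576 in het and 0.432 in WT), followed by Clca4 with 0.402, the amyloid precursor gene App with 0.361 and Smoc2 with 0.337. Igfbp4, Pabpc1, Npm1, Cdca7, Paics and Serinc3 made up the rest of the first 10. Of the other members Ascl2 ranked 19 with a mean rho of 0.255, Axin2 47 with 0.204, Rgmb 55, Tnfrsf19 97, Znrf3 186, Rnf43 367 and Lgr4 369, and Olfm4 was found in too few wells to be ranked.

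The genes least like Lgr5 were the brush border disaccharidase gene Sis (mean rho -0.36), Ndrg1 (-0.31), Dmbt1 (-0.31), the cell cycle inhibitor gene Cdkn1a (-0.28) and the ferritin gene Ftl1 (-0.27). In the fetal library, which was not used for the ranking, the rho of Slc12a2 with Lgr5 was -0.05 and that of App 0.11. In Cys the rho of Slc12a2 was 0.18, on 11 wells with Lgr5.

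The genes around the members in the WNT pathway were described from lists, by counts beside the share of all genes called. Of 25 measured genes in a list of other Lgr5 stem cell signature genes, 14 were called lower and 4 higher in Cys than in WT, beside 22% of all genes called lower and 17.6% higher. Their median log2 ratio was -0.70, against -0.06 over all genes. Clca4 was 60.3-fold lower in Cys (22.9 CPM against 1379 in WT), Igfbp4 52.1-fold and the vitamin D receptor gene Vdr 38.0-fold, whereas the gastrokine Gkn3 was 10.3-fold higher. In fetal organoids 13 of 26 were lower than in WT, beside 22.3% of all genes, and 8 higher, near the 29.4% of all genes. Vdr was 75.2-fold and Hopx 15.9-fold lower there. In Bud 5 of 26 were higher and 1 lower, beside 5.79% and 8.67% of all genes, with Scn2b at 3.04-fold higher. In het 3 of 25 were higher and 2 lower, beside 8.43% and 8.83%, with Igfbp4 at 3.21-fold higher.

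Of 21 measured genes of WNT signal transduction, 4 were called higher and 4 lower in Cys than in WT (median log2 ratio -0.12), near the shares of all genes, 17.6% higher and 22% lower. The gene of β-catenin itself, Ctnnb1, stood at 949 CPM in Cys against 574 in WT, a ratio of 1.65 (1.57 to 1.74). In fetal organoids 7 of 22 were higher than in WT, near the 29.4% of all genes, and 2 lower, beside 22.3%, Ctnnb1 with a ratio of 2.64 (2.52 to 2.77). Among WNT receptors, ligands and secreted modulators, 6 of 15 were higher and 4 lower in Cys than in WT, beside 17.6% and 22% of all genes. Porcn, which lipidates WNT proteins, was 4.39-fold higher and Wls, which carries them to the cell surface, 3.19-fold higher, while the receptor gene Fzd2 was 6.17-fold and Ror2 6.995-fold lower. In fetal organoids 9 of 17 were higher and 3 lower than in WT, beside 29.4% and 22.3% of all genes, with Fzd1 at a ratio of 65.6 (29.9 to 179.5), on 6 UMIs in WT.

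Of 13 other WNT target genes measured in Cys against WT, 3 were called higher and 5 lower, beside 17.6% and 22% of all genes. The cyclin gene Ccnd1 was 2.65-fold higher in Cys, Cd44 2.82-fold and Id2 2.64-fold, while the transcription factor gene Jun was 4.05-fold lower. In fetal organoids 5 of 18 were higher and 5 lower than in WT, both near the shares of all genes, 29.4% and 22.3%, with Ccnd1 at 5.36-fold, Id2 at 3.93-fold and Cd44 at 3.48-fold higher and the receptor gene Ephb2 3.73-fold lower. In Bud 2 of 16 were higher and 2 lower than in WT, beside 5.79% and 8.67% of all genes, Cd44 with a ratio of 2.29 (2.09 to 2.52). In het none of 15 was higher and 2 were lower, beside 8.43% and 8.83%.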

How the data were processed

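Single cells of 5 organoid libraries were analysed, 1 plate each. The authors deposited raw counts of UMIs and of reads per gene and well, and a table of estimated counts of transcripts, used as an alternative after rounding. Per the submitters' processing notes the tools were STAR 2.6.1, featureCounts 1.5.2 and Seurat 4.1.0, on GRCm38. The deposited tables list only genes with a UMI, so a gene missing from one was taken as 0. UMIs were summed over wells with at least 1000 UMIs and scaled to CPM. Intervals were exact Poisson (levels), exact conditional binomial (ratios) and Clopper-Pearson (shares), all at 95%. Each of 8 comparisons was between single libraries. Wells were thinned without replacement to 4000 UMIs. No doublet caller was run on the sorted wells. All plates share the 384 well names, which are plate positions. Gene positions came from GENCODE on GRCm38. From the other lists, at most 4 called genes with at least 20 CPM in either library were named, by the size of their log2 ratio. Members and lists were chosen with earlier results of these data known. The ratio rule and the thinning were tested on simulated data drawn with counting error alone. That check therefore does not cover UMIs that cluster in some wells, as they do in these libraries. Python 3.11.15, numpy 2.4.6, pandas 2.3.3 and scipy 1.17.1 were used.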

Additional observations from a re-analysis of the deposited data

Results flagged for a closer look

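Tnfrsf19 was called in opposite directions against WT. Its log2 ratio was -1.44 in Cys and -0.53 in het, but 0.97 in fetal organoids, and the difference between these ratios was not tested.

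Wells under 1000 UMIs, which entered no comparison, held UMIs of the 10 genes above the 3 counts that a count of 0 allows in 3 libraries: 5 in 33 het wells, 21 in 66 Bud wells and 28 in 82 WT wells. Their summed level there was 286 CPM in het, 639 in Bud and 877 in WT wells. In the kept wells it was 1171 CPM in het, 1354 in Bud and 1263 in WT.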

How the results depend on the processing

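The number of members called between libraries changed by over 1.5 times under 1 of 10 alternatives: with a ratio of at least 2, het against WT and Bud against het each had 0 called members. Under the other 9, among them the transcript table, other scalings and other well filters, none of the 8 counts did. The size factors shifted no comparison by over 0.1 (log2). Of 702 recomputed log2 ratios 58 left their counting interval, 30 of them with 1 CPM added, and no called one changed sign. Co-expression counts were less stable. The het count went to 3 without wells with an enterocyte UMI. The Bud count was 4 with the transcript table, Lgr5 at 2 UMIs, the second draw or the median of 20 draws, 5 without Kcnq1ot1-rich wells, 7 thinned to 8000 UMIs, 8 unthinned and 0 without enterocyte wells. The Cys count was 0 with the transcript table, without large wells or unthinned, and 2 without Kcnq1ot1-rich wells, thinned to 8000, with Lgr5 at 2 UMIs or in the second draw. The fetal count was 2 with the transcript table. It was 1 without Kcnq1ot1-rich wells, thinned to 8000, in the second draw or as the median of 20 draws. It was 3 without the richest well of each gene or under the enterocyte setting. In the fetal library that setting removed the 49 wells with Krt20, as Alpi, Fabp1 and Sis had no UMI there. The WT count was 5 without the richest well, 5.5 as the median of draws, 7 in the second draw, 8 unthinned or thinned to 8000, and 0 without enterocyte wells. Settings that change the wells or the table also draw the UMIs anew. In fetal organoids the ratio to wells without Lgr5 reversed for Ascl2 (0.565) and Rnf43 (0.844) with the transcript table and for Rnf43 (0.898) in the second draw. The enterocyte setting and the 20 draws were chosen after seeing the data, and the causes were not tested. The enterocyte setting also left fewer wells, in Bud 129 with and 84 without Lgr5, which widens the counting intervals. Of 100 shares at other thinning depths 87 left their interval, as a deeper or shallower draw finds more or fewer genes. No paired analysis was possible because each group has 1 library. With 1 library a group, nothing here measures the spread between cultures.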
